A study of Homo sapiens with 2 samples.

Results

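The stretches of chromosome described here are 1-Mb windows of chr1 to chr22 in which the share of sequencing reads differed between 2 whole-genome bisulfite sequencing (WGBS) libraries of HEK293T cells, a human embryonic kidney line that carries an uneven set of chromosomes. Reads were summed over the CpGs of each non-overlapping window, and windows with at least 10000 reads in the negative control (Neg) were kept. The reads of the treated library (dCas9+3A+HOXA5) were divided by those of Neg, and this ratio was divided by its median over windows, 0.5501. A value of 1 therefore means that a window took the usual share of both libraries. Of 2897 windows, 2598 had enough reads, and 634 of these had a ratio under 0.8 (568 windows, 564.7 Mb) or over 1.2 (66 windows, 66 Mb). The windows were thus chosen by their measured depth ratio, which is described below without a test. The dCas9+3A+HOXA5 cells expressed a Cas9 without nuclease activity fused to SunTag, a peptide array that recruits antibody fragments, together with such a fragment fused to the DNA methyltransferase DNMT3A and a guide RNA to HOXA5. This library is called the treated library below. The cells were sorted by fluorescence and collected 30 days after lentiviral transduction. The study describes Neg as cells that were not transduced, although the sample descriptions give the same treatment for both libraries. With 1 library per group, a difference compares these libraries and not the conditions, and cell population, time in culture, treatment and library preparation cannot be told apart.

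The Neg library held 86000851 reads at 22577702 CpGs of chr1 to chr22, a median of 3 reads per listed CpG, and the dCas9+3A+HOXA5 library 44834966 reads at 15475692 CpGs, a median of 2. Of all reads at these CpGs, 64.0% were methylated in Neg and 70.3% in the treated library. Intervals given below are 95% intervals for counting error only. They are too narrow, because a read that covers several CpGs was counted at each of them, and the p-values and calls of methylation below treat these counts as independent in the same way, so that the p-values are too small and compare these libraries only.

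In sequencing of genomic DNA, the number of reads from a segment follows the number of copies of that segment in the cells, the base composition of the DNA, and whether its sequence can be placed at a single position. Cultured lines with abnormal karyotypes are mixtures of cells that can differ in whole chromosome arms, and a sorted or long-cultured population can hold other proportions of them than its parent. A methylation level at a CpG is a share of the copies read, so a change in the copies sampled can also alter it. Common fragile sites are chromosomal regions that break readily under replication stress, and many of them overlap large, late-replicating genes.

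The sequences below show 200 bases from the 1-kb tiles with some of the strongest gains and losses of methylation inside these windows, with every CG in capitals. They are plus-strand reference sequence of GRCh37, which has the coordinates of hg19. Each methylation level is a mean over CpGs, so it need not equal the share of methylated reads given beside it. The first, chr9:82062546-82062745, is intergenic, and its 3 CpGs rose from 0% (0 of 29 reads methylated) in Neg to 77.8% (21 of 28 reads) in the treated library.
gain 1: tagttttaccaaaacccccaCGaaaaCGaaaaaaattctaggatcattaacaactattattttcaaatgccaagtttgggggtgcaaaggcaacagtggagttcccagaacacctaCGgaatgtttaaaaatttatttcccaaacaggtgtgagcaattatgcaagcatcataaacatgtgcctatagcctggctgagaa
The second, chr9:82278717-82278916, lies in an intron of TLE4, which encodes a transcriptional corepressor. Its 8 covered CpGs rose from 0% (0 of 81 reads) to 92.1% (40 of 44 reads).
gain 2: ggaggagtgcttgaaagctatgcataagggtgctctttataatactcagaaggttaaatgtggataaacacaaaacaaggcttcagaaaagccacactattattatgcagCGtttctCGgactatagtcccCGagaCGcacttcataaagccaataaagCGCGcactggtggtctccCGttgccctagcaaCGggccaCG
The third, chr7:157475216-157475415, lies in an intron of PTPRN2, a gene for a receptor-type tyrosine phosphatase of secretory vesicles. Its 5 CpGs fell from 77.0% (28 of 36 reads) to 23.3% (7 of 38 reads).
loss 1: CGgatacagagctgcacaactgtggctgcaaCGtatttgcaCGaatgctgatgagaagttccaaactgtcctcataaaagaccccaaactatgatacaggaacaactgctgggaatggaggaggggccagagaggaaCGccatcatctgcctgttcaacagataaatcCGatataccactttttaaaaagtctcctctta
Both gains came from a single window of chr9 with a depth ratio of 1.24, and the loss from a window of chr7 with a ratio of 1.59.

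The windows under 0.8 made up 21.9% of the eligible windows and those over 1.2 made up 2.54%. Their ratios ran from 0.0964 to 1.64. The windows nearest to the lower threshold had ratios of 0.7988, 0.7996 and 0.7997 inside it and 0.8002, 0.8007 and 0.8012 outside it, and those nearest to the upper threshold 1.202, 1.203 and 1.208 inside and 1.194, 1.195 and 1.196 outside. The members were not scattered over the genome. Windows under 0.8 formed 107 runs of neighbouring windows, of which 12 runs of 5 or more windows held 423 of the 568, and 65 were single windows. Windows over 1.2 formed 17 runs, of which 5 runs of 5 or more held 49 of the 66, and 10 were single windows. The 15 longest runs, 11 under 0.8 and 4 over 1.2, each had 8 or more windows and are called the named runs. Chromosome 3 had 157 of its 192 eligible windows under 0.8, chromosome 8 had 96 of 137 and chromosome 2 had 99 of 232, whereas chromosome 12 had 1 of 128 and chromosome 20 had 1 of 61. On chromosomes 15, 17 and 21 the median ratio over all windows of the chromosome was 0.854, 0.851 and 0.832, close to the threshold of 0.8. Chromosome 15 had 20 of 79 windows under 0.8, chromosome 17 had 13 of 80 and chromosome 21 had 10 of 37, mostly in short runs.

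**Figure D1:**
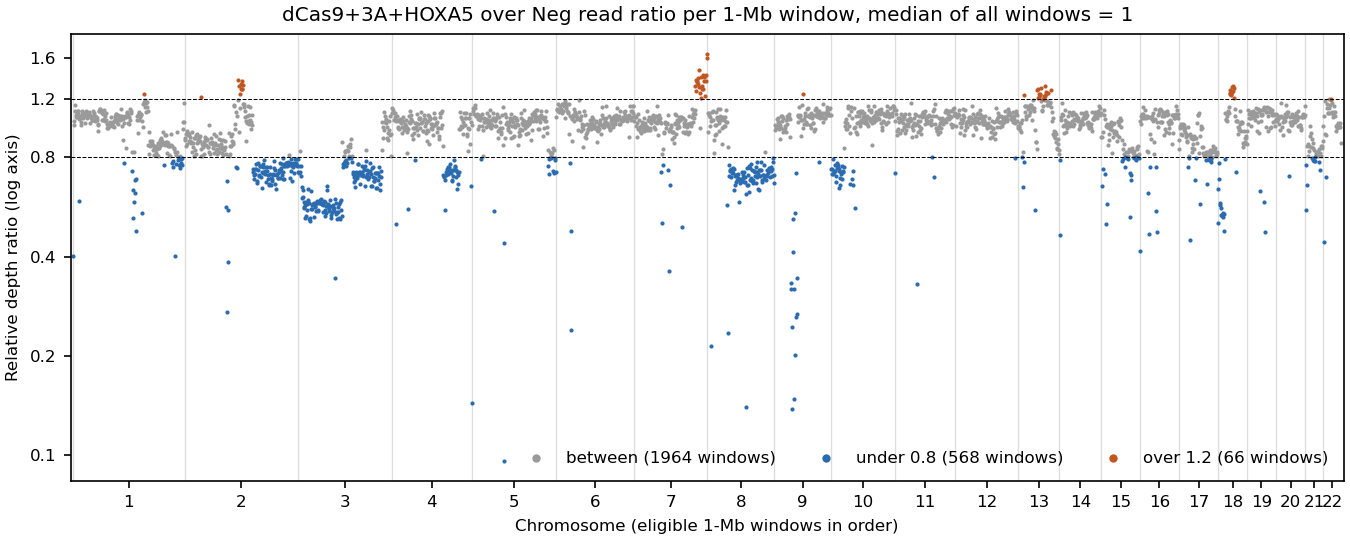
Relative depth ratio (dCas9+3A+HOXA5 over Neg, log axis) of the 2598 eligible 1-Mb windows in chromosome order, 1 point per window; dashed lines mark 0.8 and 1.2. Long runs under 0.8 are seen on chromosomes 2, 3, 4, 8, 10 and 18 and runs over 1.2 on chromosomes 2, 7, 13 and 18, while isolated points far below 0.8 occur on most chromosomes.

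The longest run covered most of the short arm of chromosome 3, chr3:4000001-90000000, with 86 windows. Neg had 2673438 reads there and dCas9+3A+HOXA5 844003, a ratio of sums of 0.574 (0.572 to 0.575). The 86 ratios ran from 0.345 to 0.754 with a median of 0.573 and an SD of 0.0484. On the long arm of the same chromosome, chr3:114000001-143000000 (28 windows) had a median ratio of 0.710 (SD 0.0344) and chr3:145000001-177000000 (31 windows) one of 0.698 (SD 0.0331). The ranges of the long-arm runs, 0.650 to 0.780 and 0.635 to 0.769, overlapped each other almost completely, and their medians lay above that of the short arm.

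Most of the long arm of chromosome 8 was under 0.8, in a pair of runs. The run chr8:48000001-127000000 (74 windows) had 1546908 reads in Neg and 570905 in the treated library and a median ratio of 0.702 (SD 0.0745), and chr8:128000001-146364022 (19 windows) had a median of 0.725 (SD 0.0303). The window between them had a ratio of 0.829. The distal long arm of chromosome 2 had the same form, with a median of 0.721 (SD 0.0361) in chr2:147000001-224000000 (74 windows), 0.761 (SD 0.0322) in chr2:225000001-243000000 (18 windows) and 0.813 in the window between them. The run chr4:128000001-165000000 (33 windows) had a median of 0.719 (SD 0.0407) and lay in the interior of a long arm, and chr10:1-27000000 (27 windows) had 0.725 (SD 0.0319) and began at the chromosome end. These 8 runs of chromosomes 2, 3 (long arm), 4, 8 and 10 therefore had medians within 0.698 to 0.761, with spreads between windows that overlapped.

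The 14 windows of chr18:1-19000000, the short arm and centromere of chromosome 18, had the lowest median among the named runs made mostly of single-copy sequence, 0.540 (SD 0.0958), from 362042 reads in Neg and 117069 in the treated library. The long arm of this chromosome held a run in the other direction, chr18:28000001-39000000, where 11 windows had a median of 1.26 (SD 0.0330) from 305490 and 212769 reads. Chromosome 18 was the only one among those with a named run to hold named runs on both sides of 1.

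Chromosome 7 held 24 of the 66 windows over 1.2, out of its 151 eligible windows, while chromosome 13 held 18 of 85 and chromosome 18 held 11 of 60. The run chr7:134000001-143000000 (9 windows) had a median ratio of 1.35 (SD 0.0568) from 316139 reads in Neg and 235519 in the treated library, and chr7:144000001-159000000 (15 windows) a median of 1.36 (SD 0.123) from 823422 and 641223 reads. The window between them had a ratio of 0.979 with every CpG and 1.38 with single-copy CpGs only. The 2 windows with the highest ratios of all closed the second run, 1.59 (112647 and 98696 reads) and 1.64 (84427 and 76232 reads), and the third highest, 1.47, lay in the first. On chromosome 13, chr13:62000001-70000000 (8 windows) had a median of 1.24 (SD 0.0312), and shorter runs of 3 and 4 windows followed it with medians of 1.21 and 1.25. Outside the 15 longest runs, a run of 6 windows on chromosome 2, chr2:118000001-124000000, had a median of 1.28, and one of 5 windows on chromosome 1, chr1:240000001-245000000, a median of 0.789.

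To describe the depth of each library on its own, the reads per single-copy CpG of each window were divided by a reference median. This reference was the median of windows of like GC share with a ratio between 0.8 and 1.2. The ratio between the depths of the libraries nearly repeats the one that chose the windows, so their difference is built in. Once the depth in Neg is known, that in the treated library largely follows from the rule. In 8 of the 11 named runs under 0.8 the median Neg depth lay within 0.1 of 1, and the depth of the treated library in these 8 runs lay between 0.627 and 0.713. In the chromosome 8 run of 74 windows, for example, it was 0.999 in Neg and 0.688 in the treated library, and in the chromosome 4 run 0.993 and 0.693. The short arm of chromosome 3 differed from these runs, with a raised depth of 1.22 in Neg and 0.673 in the treated library. Depth there was thus close to that of the long-arm runs in the treated library and higher than theirs in Neg. The short arm of chromosome 18 was low in both libraries, with 0.683 in Neg and 0.364 in the treated library. The 4 named runs over 1.2 were deep in both libraries. The chromosome 7 runs had 1.25 and 1.22 in Neg against 1.64 and 1.66 in the treated library, the chromosome 18 run 1.61 against 1.96, and the chromosome 13 run 2.50 against 3.17. The run of 6 windows on chromosome 2 was not, with 0.939 in Neg and 1.16 in the treated library. The run of 5 windows on chromosome 1 was deep in both libraries as well, 1.66 and 1.24, but less so in the treated library. All these depths are read counts, and neither library was measured by another method.

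**Figure D2:**
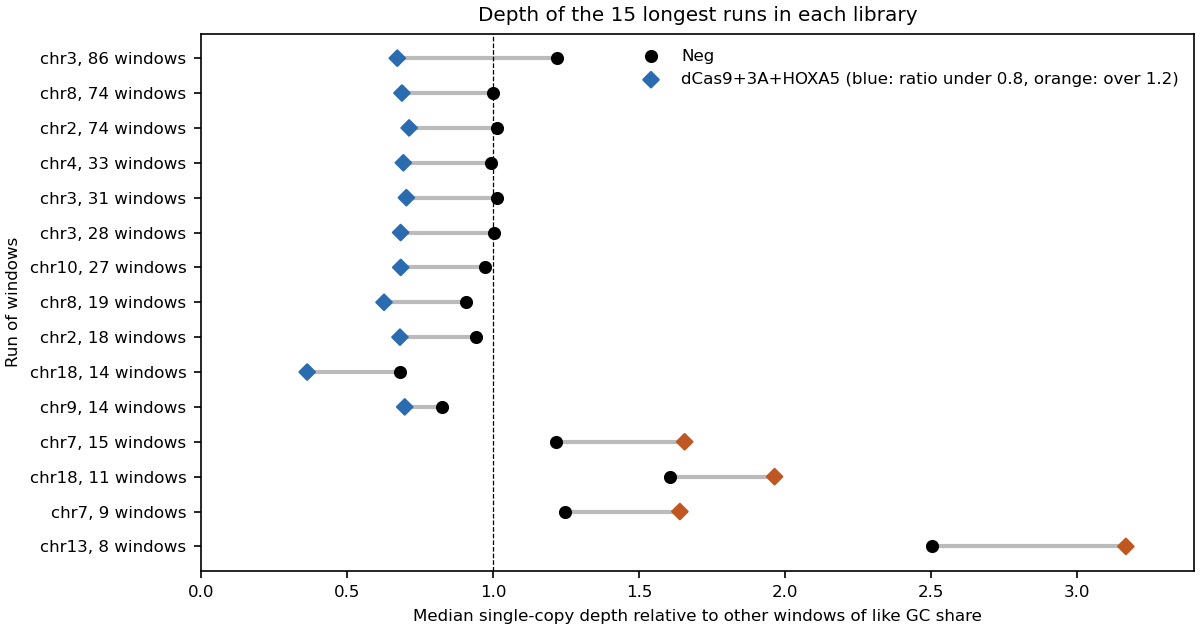
Median depth per single-copy CpG of the 15 longest runs, relative to windows of like GC share with a ratio between 0.8 and 1.2, in Neg (circles) and dCas9+3A+HOXA5 (diamonds); each row is a run, named by chromosome and number of windows. Most runs under 0.8 sit near 1 in Neg and near 0.69 in dCas9+3A+HOXA5, and the runs over 1.2 lie above 1 in both. The gap between the libraries is built in by the choice of the windows.

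Repeated sequence moved with the shorter runs under 0.8. A CpG was called multi-copy when the 50 bases around it occurred at another CpG of the primary assembly of the reference as well. Alternative haplotype contigs were not searched, so a CpG called single-copy can still have a copy there. Over all eligible windows, multi-copy CpGs held 14.5% of Neg reads and 9.20% of reads of the treated library. The alternative haplotype contigs of the reference, which repeat chromosomal sequence, held 268623 reads in Neg and 8637 in the treated library. The rule by which reads with several matches were placed is not known here, nor whether it was the same for both libraries, and its part in the ratios at multi-copy CpGs was not tested. In the windows under 0.8 that formed runs of 1 to 4 windows, a median of 25.1% of CpGs were multi-copy, and these CpGs held 39.3% of Neg reads and 18.9% of reads of the treated library. The ratio of summed reads was 0.307 at their multi-copy CpGs and 0.850 at their single-copy CpGs. These ratios of sums, like those that follow here, were divided by 0.5501, the median for every CpG. A value of 1 is therefore not the usual share of single-copy reads alone. In runs of 5 or more windows under 0.8 a median of 10.2% of CpGs were multi-copy, close to the 10.1% of all eligible windows, and the ratio was 0.463 at multi-copy and 0.703 at single-copy CpGs. In windows over 1.2 it was 0.963 and 1.37, and in the windows between 0.726 and 1.06. A lower ratio at multi-copy than at single-copy CpGs was thus not particular to windows under 0.8. The shorter runs over 1.2 did not hold more repeated sequence, with a median of 8.98% multi-copy CpGs in runs of 1 to 4 windows and 9.30% in longer runs.

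When the ratio was taken from single-copy CpGs only, 73 of the 568 windows under 0.8 and 8 of the 66 over 1.2 had values between 0.8 and 1.2. This single-copy ratio of a window was divided by its own median over windows and not by 0.5501. Of the 73, 63 came from the 145 windows in runs of 1 to 4 and 10 from the 423 in longer runs. The 3 lowest windows of all moved up without returning to that range. A window of chr5, 69000001 to 70000000, with 96.2% multi-copy CpGs, had 25882 reads in Neg and 1373 in the treated library, a ratio of 0.0964, which was 0.636 with single-copy CpGs. A window of chr9, 42000001 to 43000000, had a ratio of 0.138 and 0.579 with single-copy CpGs. A window of chr8, 86000001 to 87000000, had 88491 reads in Neg and 6841 in the treated library, a ratio of 0.141, and single-copy CpGs put it at 0.654, within the range of the run around it. One named run consisted largely of repeated sequence, chr9:39000001-71000000, which spans the centromere of chromosome 9. Its 14 windows had a median of 86.5% multi-copy CpGs, a median ratio of 0.319 and a single-copy median of 0.841, and 9 of the 14 lay between 0.8 and 1.2 with single-copy CpGs.

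Apart from the chromosome 9 run, the named runs under 0.8 were also found without multi-copy CpGs. With the same rule applied to single-copy CpGs alone, 2386 windows had at least 10000 reads in Neg and 510 were under 0.8, of which 428 lay in 15 runs of 5 or more. The longest was chr3:4000001-100000000 with 92 windows and a median of 0.551. Chromosome 2 then had a single run from 148000001 to its end (84 windows, median 0.714), and chromosome 7 a single run chr7:134000001-159000000 (25 windows, median 1.33, range 1.22 to 1.64). Runs of 5 or more windows also appeared at chr1:234000001-245000000 (11 windows, 0.759), chr5:164000001-174000000 (10 windows, 0.770), chr21:29000001-38000000 (9 windows, 0.782), chr17:60000001-66000000 (6 windows, 0.785) and chr2:112000001-124000000 (10 windows, 1.29), and the first 4 of these had medians close to 0.8, as did 2 runs of 5 windows on chromosomes 15 and 17 (0.768 and 0.780). Over 1.2 there were 60 windows, of which 40 lay in 3 runs of 5 or more, where every CpG had given 49 windows in 5 such runs. The chromosome 18 run was reduced to 5 windows, chr18:33000001-38000000 (median 1.27), and the chromosome 13 run was no longer a run of 5 or more.

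**Figure D3:**
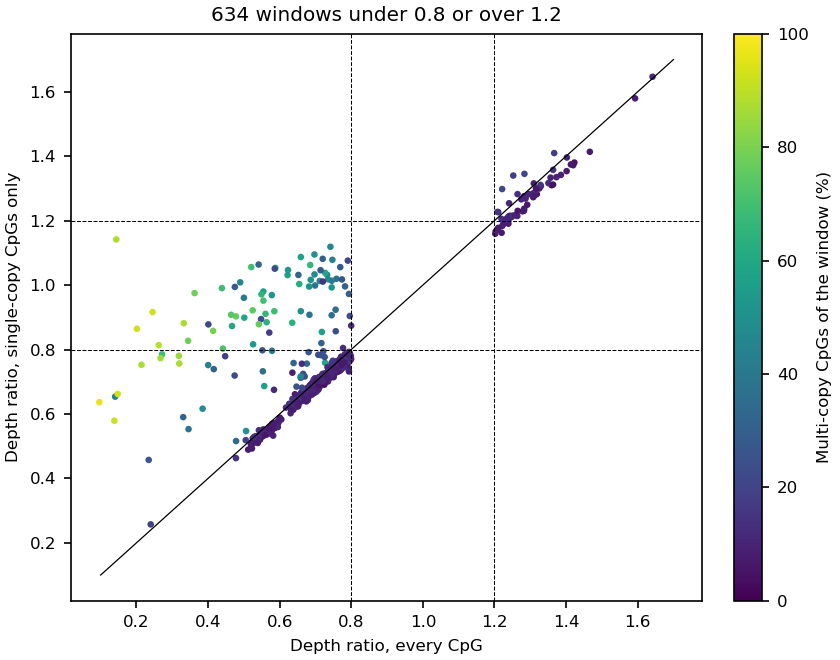
Depth ratio from every CpG (horizontal) against the ratio from single-copy CpGs only (vertical) for the 634 member windows; colour gives the percent of CpGs that are multi-copy, the solid line marks equality and dashed lines the thresholds. Windows rich in multi-copy CpGs lie above the line, up to the range between 0.8 and 1.2, and the others follow the line closely.

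The run edges were looked at more closely. The ratio of single-copy reads in 100-kb bins within 3 Mb of each edge was split at the position that separated the bins best. It was divided by 0.5501, the median for every CpG, and not by a single-copy median. On this scale the summed single-copy reads of all windows between the thresholds gave 1.06. The edges came from the same ratio and the split was chosen to part the bins, so a difference between the sides is built in, the intervals do not cover that choice, and the values describe only the size and place of the change. At the start of the chromosome 2 run the ratio went from 1.06 (1.04 to 1.08) to 0.713 (0.6997 to 0.727) at chr2:147200001-147400000. On chromosome 4 it went from 1.101 (1.08 to 1.12) to 0.733 (0.721 to 0.745) at chr4:127400001-127600000, and back from 0.721 (0.707 to 0.735) to 1.12 (1.103 to 1.14) at chr4:165400001-165600000. The long-arm run of chromosome 3 ended in a change from 0.724 to 1.07 at chr3:177300001-177500000. No protein-coding gene overlapped these 4 intervals. The chromosome 10 run ended at chr10:27300001-27500000, from 0.748 (0.738 to 0.759) to 1.04 (1.03 to 1.06), an interval with the genes ANKRD26, YME1L1, MASTL and ACBD5. Among runs over 1.2, chromosome 7 went from 1.11 (1.095 to 1.12) to 1.37 (1.36 to 1.39) at chr7:133800001-134000000, an interval with LRGUK and SLC35B4, and chromosome 13 from 0.923 (0.905 to 0.941) to 1.298 (1.28 to 1.31) at chr13:62100001-62300000. The chromosome 18 run over 1.2 had smaller changes, from 1.12 to 1.28 at its start and from 1.31 to 1.06 at its end. Edges with a gradual or small change also occurred: the chromosome 3 short-arm run began between 0.810 and 0.749, and chr8:48000001-127000000 ended between 0.749 and 0.692, both without a clear step.

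**Figure D4:**
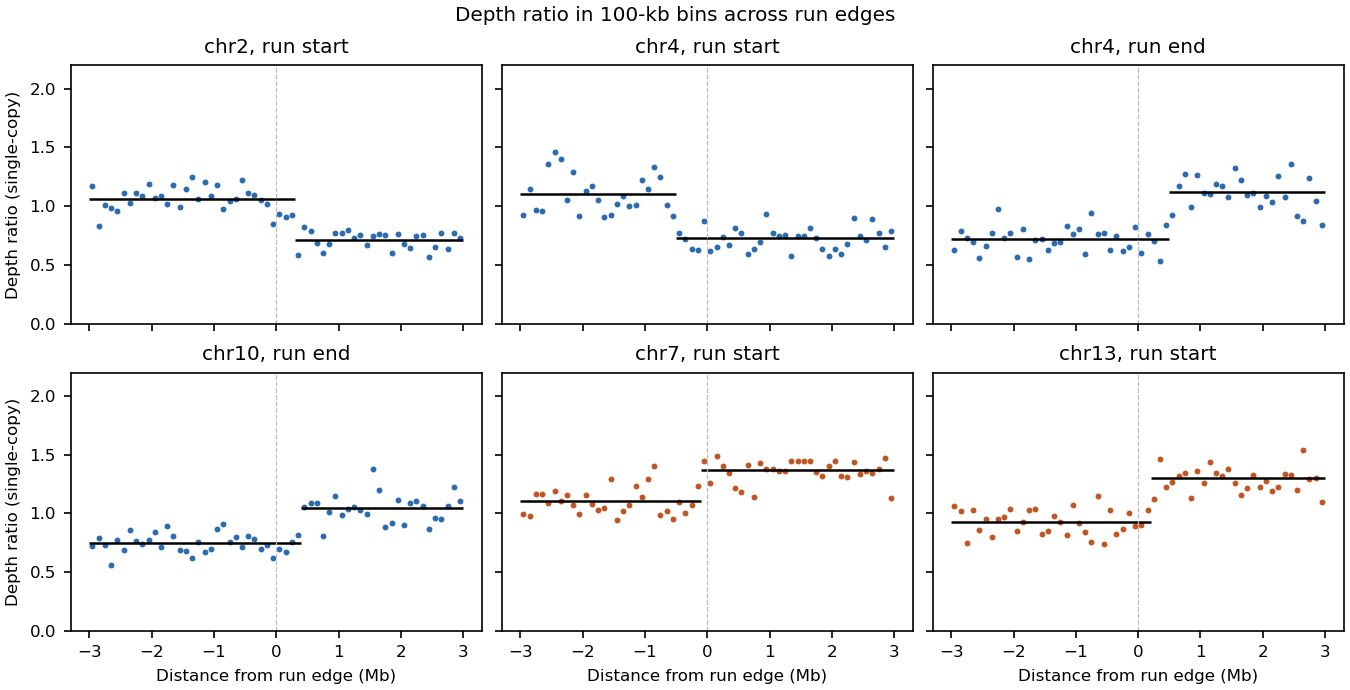
Depth ratio of single-copy reads in 100-kb bins (points) within 3 Mb of 6 run edges, divided by the median for every CpG. Black lines give the ratio on each side of the best split, and the dashed line is the edge of the 1-Mb window. The 6 edges were picked from those with the largest changes. Their changes at the splits, of about 0.3 to 0.4 in the ratio, fall within 0.5 Mb of the window edge. Most other edges changed less, and some of their splits lay farther from the window edge.

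Methylation was compared in the same windows, over CpGs that both libraries covered with at least 5 reads. A window's level was averaged over these CpGs, and its reads were tested with Fisher's exact test (two-sided) and Benjamini-Hochberg adjustment over the 2598 windows. Windows under 0.8 had a median level of 69.0% in Neg and 76.7% in the treated library and a median difference of 6.23 percentage points (quartiles 3.63 and 10.4). Windows over 1.2 had 68.3% and 75.9% and a median difference of 7.64 points (quartiles 4.81 and 10.5), and the 1964 windows between the thresholds 70.0%, 77.4% and 5.87 points (quartiles 3.51 and 9.32). The 3 distributions overlapped over nearly their whole width. Methylation was higher in the treated library in 520 of 568 windows under 0.8 (91.5%) and in 59 of 66 over 1.2 (89.4%). The same held for 1786 of the 1964 windows between and for 2365 of all 2598 windows, so these shares were not particular to the members. At an adjusted p under 0.01 and a difference over 10 points, 146 windows under 0.8 (25.7%) and 19 over 1.2 (28.8%) were called higher, where 23.4% of all windows were called, and 2 and 1 were called lower, where 0.770% of all windows were called. Under 0.8, 123 of 423 windows (29.1%) in runs of 5 or more were called higher, and 23 of 145 (15.9%) in runs of 1 to 4. The median differences of these kinds of run were 6.93 and 4.84 points. Windows between the thresholds of like GC share had 7.78 and 5.84 points, above the observed value for both kinds. The kinds also differed in median GC share, 39.4% and 41.9%, and in CpGs compared per window, medians of 116 and 391.

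The base composition of a window moved with its methylation difference, and the depth ratio did not. Over all 2598 windows the Pearson correlation of the difference with GC share was -0.455 and with the depth ratio -0.0149; windows share chromosomes, libraries and domains, so these are descriptions. Within the windows over 1.2 the correlation of the difference with the depth ratio was -0.484 and with GC share -0.693, and the ratio and GC share rose together (0.606), so these could not be told apart. Windows between the thresholds of the same GC share had median differences of 7.78 points for windows under 0.8 (observed 6.23) and 7.48 for those over 1.2 (observed 7.64). The matched value also lay above the observed one in the windows between the thresholds themselves, 6.70 against 5.87. For the runs of 5 or more these values were 7.78 (observed 6.93) and 6.70 (observed 6.59), and with 1 read per CpG 8.21 (observed 7.98) and 7.08 (observed 8.53). On 12 chromosomes with at least 10 windows under 0.8 and 10 between, the median difference was higher in the former on 6, and on 4 such chromosomes for windows over 1.2 it was higher on 2. Chromosome 3 had 7.20 points under 0.8 and 9.31 between, and chromosome 8 had 6.80 and 4.85, so chromosomes differed in direction.

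The runs differed in methylation change among themselves. The long-arm run of 31 windows on chromosome 3 and the chromosome 4 run had the highest medians among the 11 named runs under 0.8, 10.0 points (range 4.92 to 15.9) and 10.3 points (1.33 to 25.7), and 15 of 31 and 16 of 33 windows were called higher, where 23.4% of all windows were. Windows of like GC share had 8.97 points for both. The chromosome 4 windows went from a median of 65.0% to 78.5%. The end of chromosome 2 (18 windows) had the smallest median of these 11, 2.31 points (-7.27 to 12.3), with a Neg level of 75.7%, and the end of chromosome 8 (19 windows) had 3.23 points (-6.28 to 8.37) with a Neg level of 54.2%, where windows of like GC share had 4.32 and 5.53 points. None of the latter 19 windows was called, while 29 of the 74 windows of the proximal chromosome 8 run were called higher. The short arm of chromosome 3, which had the longest run, had 5.94 points (-11.0 to 32.3), with 16 of 86 windows called higher and 1 lower, against 6.70 points at like GC share. Among runs over 1.2, chromosome 13 had 11.0 points (8.03 to 13.8), from 74.1% to 85.1%, and 6 of its 8 windows were called higher, but windows of like GC share had 14.9 points. The chromosome 7 run of 15 windows had 4.57 points and the widest range among the named runs over 1.2, -12.2 to 27.1, with 4 windows called higher and 1 lower. Against windows of like GC share, 6 of the 11 named runs under 0.8 and 2 of the 4 over 1.2 had the higher median. With a minimum of 1 read per CpG these counts were 6 and 1.

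**Figure D5:**
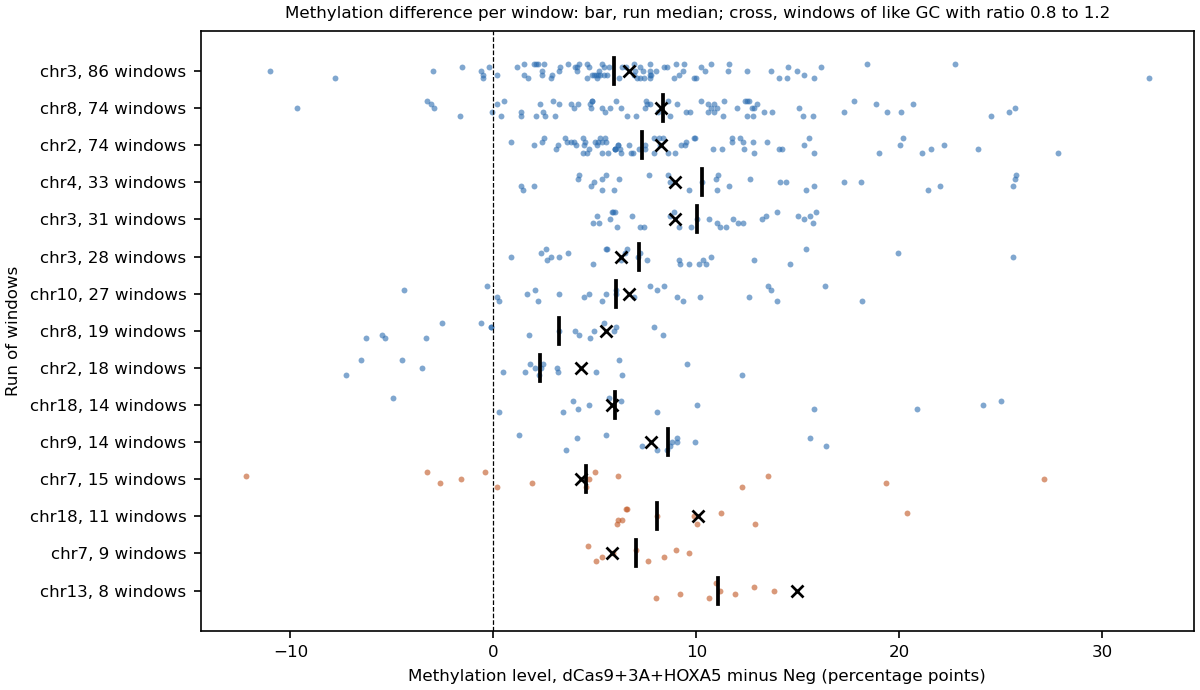
Methylation difference (dCas9+3A+HOXA5 minus Neg, percentage points) of every member window in the 15 longest runs; black bars are run medians and crosses the median of windows of like GC share with a ratio between 0.8 and 1.2. All 15 medians lie above 0, and bars lie on both sides of the crosses in runs of either colour (blue under 0.8, orange over 1.2).

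Single windows reached far beyond these medians. The greatest gain among members was in a window of chr21, 24000001 to 25000000, with a ratio of 0.793, where 71 CpGs went from 33.6% to 78.3% (Fisher's exact adjusted p = 1.28e-38). With 1 read per CpG, 2173 CpGs there gave a gain of 47.8 points. The window chr3:84000001-85000000 gained 32.3 points (50 CpGs, 47.7% to 79.97%), chr15:20000001-21000000 gained 30.8 points (342 CpGs, 29.0% to 59.8%, 62.4% of its CpGs multi-copy), chr2:210000001-211000000 gained 27.8 points (63 CpGs, 46.2% to 74.0%), and chr7:146000001-147000000, inside CNTNAP2, gained 27.1 points (324 CpGs, 48.0% to 75.1%). The strongest losses were smaller. The window chr7:157000001-158000000 went from 63.5% to 51.3% over 5144 CpGs, a loss of 12.2 points (Fisher's exact adjusted p = 2.20e-268), and it also had the second highest depth ratio. The window chr15:94000001-95000000 fell by 12.1 points (191 CpGs, 31.0% to 18.9%), and chr3:21000001-22000000 fell by 11.0 points over 62 CpGs. With at least 1 read per CpG, 1867 CpGs of the latter window fell by 0.831 points, so that its loss rests on few CpGs.

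At a finer scale, 1-kb tiles with at least 5 such CpGs were called at an adjusted p under 0.01 and a difference over 20 points. In windows under 0.8, 199 of 7218 tiles (2.76%, interval 2.40% to 3.16%) were higher and 71 (0.984%) lower, and in windows over 1.2, 122 of 4628 (2.64%, 2.21% to 3.14%) were higher and 107 (2.31%, 1.92% to 2.79%) lower. Over all tiles 2.28% were higher and 0.948% lower. Most tiles under 0.8 lay in runs of 1 to 4 windows, where 32 of 4433 were lower (0.722%, 0.512% to 1.02%). In runs of 5 or more, 39 of 2785 tiles were lower (interval 1.03% to 1.91%), a larger share than that of all tiles. Tiles called higher were 131 (2.96%) in the shorter and 68 (2.44%) in the longer runs. The difference between these kinds of run was not tested. Losses in windows over 1.2 were concentrated in 1 window, chr7:157000001-158000000, which includes part of PTPRN2. There 66 of 426 tiles (15.5%) were called lower and 5 higher, whereas 41 of 4202 tiles (0.976%) were called lower in the other windows over 1.2, a share near that of all tiles. Without multi-copy CpGs the percent of tiles called higher was 2.08% under 0.8 and 2.30% over 1.2, where it was 1.87% of all tiles. With 1 read per CpG it was 1.24% under 0.8, below the 1.37% of all tiles, and 2.28% over 1.2. The tile around the first sequence above went from 0% to 88.9% (6 CpGs, 0 of 56 and 46 of 53 reads, Fisher's exact adjusted p = 2.32e-20), and the TLE4 tile from 12.5% to 93.1% (14 CpGs, Fisher's exact adjusted p = 1.05e-34). A tile over an untranslated exon of CANX, which encodes an endoplasmic reticulum chaperone, rose from 12.8% to 87.5% (9 CpGs, chr5:179158001-179159000). Intergenic tiles on chromosomes 21 and 1 rose by 71.8 and 69.2 points, and lay in windows with 36.0% and 76.3% multi-copy CpGs. With single-copy CpGs only, the depth ratio of both windows lay between 0.8 and 1.2. Losses other than in PTPRN2 were in an intron of LY96, a coreceptor of endotoxin sensing (93.1% to 22.7%, 5 CpGs), in exon sequence of NBEAL2, a gene of platelet granule formation (73.5% to 6.67%, 9 CpGs), and in coding exon sequence of ANO7, an anoctamin family member (65.3% to 2.39%, 7 CpGs). The tile of the third sequence fell from 83.6% to 16.7% (7 CpGs, Fisher's exact adjusted p = 7.47e-11).

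Promoters, 1 kb around protein-coding gene starts, were covered in 501 cases under 0.8 and 142 over 1.2. Under 0.8, 6 were called higher (1.198%) and 6 lower, where 1.01% and 0.801% of all promoters were called, and over 1.2 none was called higher and 2 were called lower. The promoter of PLCD1, a phospholipase C, rose from 42.7% to 96.0% (15 CpGs, Fisher's exact adjusted p = 4.68e-12) within the short-arm run of chromosome 3, and that of SV2A, a synaptic vesicle glycoprotein, from 13.7% to 52.9% (12 CpGs) in a window of chromosome 1 with 51.2% multi-copy CpGs. The FAM90A12P promoter rose from 49.9% to 97.1% (6 CpGs), but 87.5% of the CpGs of its window were multi-copy and its reads may belong to other copies. ANKRD34C and BOC, a hedgehog coreceptor, rose by 30.5 and 22.1 points. Among losses, the promoter of NAPRT, an enzyme of NAD synthesis from nicotinic acid, fell from 93.3% to 41.7% (6 CpGs, Fisher's exact adjusted p = 0.000673), that of RASGRF1, an exchange factor for Ras, from 60.1% to 10.5% (7 CpGs), that of CHRNG, the fetal subunit of the muscle acetylcholine receptor, from 91.3% to 51.4% (5 CpGs), and that of RASSF5 fell by 36.4 points and that of EFCAB12 fell by 35.2 points. The ANKRD34C and RASGRF1 promoters lay in 1 window of chromosome 15 and moved in opposite directions. With single-copy CpGs only, the windows of SV2A and RASSF5 had depth ratios between 0.8 and 1.2, the latter 0.857. Of gene bodies with at least 5 CpGs, 182 of 2263 under 0.8 (8.04%) and 27 of 278 over 1.2 (9.71%) were higher by over 10 points, where 7.00% of all gene bodies were, and 18 and 1 were lower, where 0.671% were.

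Of 19073 protein-coding genes that started in eligible windows, 17.6% did so in windows under 0.8 and 1.599% in windows over 1.2. Neither HOXA5 nor KLF4, BACH2 or DNMT3A started in such a window. Of 23 genes of the DNA methylation and Polycomb machinery in eligible windows, 3 lay under 0.8 (MBD4, a glycosylase that binds methylated CpGs, 0.708; ZBTB38, a methyl-CpG binding zinc finger protein, 0.653; EED, a Polycomb subunit, 0.7997, with 0.874 from single-copy CpGs) and 1 over 1.2 (EZH2, the Polycomb histone methyltransferase, 1.31). The promoter of EZH2 stayed near 0, with 0.648% in Neg and 0.976% in the treated library over 103 CpGs with at least 1 read. Of 24 genes often gained in tumours, MYC (0.702) and TERC, the telomerase RNA (0.682), lay under 0.8. Of 22 genes often lost in tumours, 3 did, all on the short arm of chromosome 3: VHL, a subunit of a ubiquitin ligase (0.605), and BAP1, a deubiquitinase, and PBRM1, a chromatin remodelling subunit, in 1 window (0.591). The body of PBRM1 went from 84.7% to 90.9% (46 CpGs, Fisher's exact adjusted p = 0.0297), and the VHL promoter remained at 0.701% and 1.58%. Of 23 imprinted genes, only ZDBF2 (0.725) lay in such a window, and of 2 HEK293 loci only FH, fumarate hydratase (0.789).

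Of 10 large genes at common fragile sites, 3 started in windows under 0.8 and 1 in a window over 1.2, where 17.6% and 1.599% of all genes did. FHIT, on the short arm of chromosome 3, had a window ratio of 0.576 and a body level of 77.4% in Neg and 85.9% in the treated library (177 CpGs, Fisher's exact adjusted p = 0.00211). NAALADL2 had a ratio of 0.635 and went from 67.7% to 85.8% (67 CpGs, Fisher's exact adjusted p = 5.77e-12). CNTNAP2, a neuronal cell adhesion gene that spans several windows of the chromosome 7 run, started in a window with a ratio of 1.21 and went from 48.4% to 65.8% over 1008 CpGs (Fisher's exact adjusted p = 1.10e-93). DLG2 started in the same window as EED, just under the threshold at 0.7997, and with single-copy CpGs (0.874) the count under 0.8 would be 2. Its body had 26.0% and 27.9% as means over 199 CpGs, but 7.91% and 28.9% of the pooled 6739 and 1341 reads were methylated (Fisher's exact adjusted p = 5.33e-84). Its value therefore depended on the weight given to CpGs with many reads. The 4 genes are few, and their share was not tested.

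Reads over a single gene did not always follow its window. Over the gene itself, PBRM1 had 5728 reads in Neg and 1898 in the treated library, a ratio of 0.602, close to its window, and CNTNAP2 had 49917 and 36330 reads and a ratio of 1.32. MYC had 747 and 600 reads, a ratio of 1.46 (1.31 to 1.63) within a window of 0.702, and FH had 346 and 257 reads, a ratio of 1.35 (1.15 to 1.59) within a window of 0.789; both were singled out after their values were seen. CpG density moved with such local ratios. At single-copy CpGs in windows under 0.8 the ratio was 0.709 in 1-kb tiles with under 10 CpGs and 0.870 in tiles with 80 or more, in windows over 1.2 it was 1.27 and 1.57, and in windows between 1.02 and 1.15. These ratios were divided by 0.5501, the median for every CpG. The part of CpG density in the values of MYC and FH was not tested.

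The other counts in the tables were set beside the C or T reads that chose the windows. The corrected counts derive from these reads, so their likeness is built in. The median ratio under 0.8 was 0.705 from C or T reads, 0.706 from the corrected counts and 0.703 from reads of the opposite strand. It was 0.812 from the number of CpGs with at least 1 read, which saturates with depth, and 257 of the 568 windows under 0.8 and 37 of the 66 over 1.2 were members by that count. Opposite-strand reads can also show variant bases, since a G to A change there is not made by bisulfite. At CpGs with at least 2 A and 2 G in Neg, 72.7% (71.7% to 73.7%) of draws of 4 reads from the treated library lacked the variant base in windows under 0.8, 62.2% (59.8% to 64.5%) in windows over 1.2 and 68.9% (68.4% to 69.5%) between. With the libraries exchanged the values were 68.6%, 67.4% and 71.4%. Even in the windows between, 63.7% of the sites chosen in Neg had no A in any read of the treated library. How many sites are true variants of the cells was not tested, so a lacking base cannot be read as a lost copy. From Neg to the treated library, windows under 0.8 were also above the windows between with at least 3 A and 3 G (67.2% and 57.4%) and without multi-copy CpGs (69.4% and 67.3%). They were below them without CpGs with over 30 such reads (67.3% and 68.3%) and without both kinds of CpG (65.4% and 66.8%). With the libraries exchanged, windows under 0.8 were below the windows between in each of these settings, with 65.7% and 70.6% in the last. The order of the groups in the first direction thus changed with the CpGs used.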

How the data were processed

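WGBS was done on 1 Neg and 1 dCas9+3A+HOXA5 library, grouped by sample title. Per the labels and the study's methods, the authors mapped trimmed reads to hg19 (BSMAP 2.90) and called each CpG. Their treatment of duplicates and of reads with several matches is not known here. The deposited tables hold, per the file headers, the count of C and of C or T reads, opposite-strand counts, an estimated count (C or T reads corrected for variants) and the deposited fraction of methylated reads. Every listed autosomal CpG lay on a CG of GRCh37.

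From these, reads were summed per 1-Mb window and the ratio centred on its median. Single-copy window ratios were centred on their own median, and edge, density and summed ratios on that for every CpG. Counts are as deposited. Levels are means of the fraction over CpGs covered by at least 5 reads in each library. Two-sided Fisher's exact tests on C and remaining reads were adjusted by Benjamini-Hochberg over all windows (called at adjusted p under 0.01 and 10 points), 1-kb tiles or promoters (20 points). Runs are consecutive eligible windows on the same side, and windows under the read minimum were passed over. The 15 longest runs, 3 extreme windows at each end, 5 largest gains and losses among called tiles and promoters, and all list genes starting in members are named. A CpG is multi-copy by exact match of 50 bases within the primary assembly, without the haplotype contigs. Genes are GENCODE 44 on GRCh37. Python 3.11.15, SciPy 1.17.1 and pandas 2.3.3 were used, and the scripts were tested on simulated data. The windows, runs and gene lists were chosen with earlier results of these data known. Multi-copy analyses, gene bodies and CpG density were added after seeing the data. Alternatives covered window size, start, read minimum, counted column, thresholds, GC centring and CpG coverage.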

Additional observations from a re-analysis of the deposited data

How the results depend on the processing

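Windows under 0.8 covered 508.0 to 604.2 Mb under other window sizes and starts, other counted columns, GC centring and without deep or multi-copy CpGs, and 385.2 Mb at 20000 reads in Neg. They covered 270.2 Mb when CpGs with at least 1 read were counted, a count that saturates with depth, and 270.9 Mb at thresholds of 0.7 and 1.3. Windows over 1.2 covered 60 to 78 Mb under these settings other than 43 Mb at 20000 reads and 26 Mb at 1.3; counting covered CpGs shared 37 of the 66 windows. The methylation difference under 0.8, 6.23 points, was 7.05 with 1 read and 4.58 with 10 reads per CpG, 6.95 from summed reads, 5.98 with members centred within GC bins and 6.57 in runs of 3 or more. That over 1.2, 7.64 points, was 8.62 with 1 read, 8.24 with 10 reads, 8.24 with GC bins, 7.83 in runs of 3 or more and 7.09 in windows that stayed over 1.2 without multi-copy CpGs. Tiles called higher under 0.8 (2.76%) were 1.24% with 1 read per CpG, where 1.37% of all tiles were, and 2.08% without multi-copy CpGs. The share of Neg-variant CpGs without the variant base under 0.8 (72.7%) was 67.2% with 3 A and 3 G, 67.3% without deep CpGs, 69.4% without multi-copy CpGs and 65.4% without both; over 1.2 (62.2%) it was 47.5% with 3 A and 3 G. Where a setting does not itself change the CpGs or windows counted, the cause was not tested. No paired analysis was possible because there is only 1 library per group. The read depth of a median of 3 and 2 per CpG leaves a median of 146 CpGs per window under 0.8 and 949 per window over 1.2, so single windows under 0.8 are the less precise, and no difference could be set against a spread between replicates.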
